A study of Mus musculus with 24 samples.

Results

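The genes described here are the translation initiation factor genes, 54 of the 55291 genes in the deposited RNA count tables. They were taken by name alone: every gene whose symbol starts with Eif and a number from 1 to 6 was kept, while the eIF2 kinases (Eif2ak genes) and symbols marked as pseudogenes were left out. All of them stand for initiation factors or for proteins named with them except Eif2c5, a gene of the Argonaute group that carries an old Eif name and is counted as other. In every comparison 52 of the 54 passed the filter on low counts. Eif2c5 and Eif4ebp3, a relative of the cap inhibitor 4E-BP1, did not, with at most 14 and 11 counts in a library.

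Mouse zygotes of the background strain that the labels give as BDF2 received antisense oligonucleotides (ASOs, made to bind a chosen RNA so that the cell's RNase H cuts it) in the male pronucleus at 20 µM. Control embryos received a scrambled ASO, and MERVL-KD embryos received a mix of 3 ASOs against MERVL, an endogenous retrovirus that mouse embryos transcribe at the 2-cell stage. Total RNA was sequenced at the 2-cell, 4-cell and 8-cell stages in 2 control and 2 MERVL-KD libraries per stage, 12 libraries in all, each from a pool of 30 embryos. The labels date the 2-cell libraries to 1.5 days post coitum (dpc) and the 4-cell and 8-cell libraries both to 2.5 dpc, and all embryos had been injected, so no group stands for uninjected embryos.

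Initiation is the step at which a ribosome is brought to the start codon of an mRNA. The GTPase eIF2 carries the initiator tRNA to the small ribosomal subunit and is recharged by eIF2B, while eIF3 scaffolds the small subunit. The eIF4F complex (the cap-binding protein eIF4E, the scaffold eIF4G and the helicase eIF4A) recruits the capped mRNA, and eIF1, eIF1A, eIF5 and eIF5B govern start codon choice and subunit joining. Oocytes and early embryos store mRNA that was made before fertilization and hold it back from translation, in part through proteins that bind eIF4E, and the first cleavage stages replace this store with RNA from the embryo's own genome.

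Totals ranged from 28167085 to 41482526 counts per library, and among genes with between 1 and 50 counts 71.8% to 74.7% had an even number, as happens when both mates of a read pair are counted. MERVL-int, the internal part of the target, took 6.33% and 6.57% of the counts in the control 2-cell libraries against 0.157% and 0.143% in MERVL-KD, and each of the 12 libraries followed its label, with 1.07% or more in control and at most 0.157% in MERVL-KD. Of 12 mRNAs typical of the oocyte, the summed level was 1406 to 1479 CPM in control and 923 to 1027 CPM in MERVL-KD at the 2-cell stage, and 173 to 223 CPM at the later stages. Here CPM is a gene's count relative to its library's total, after TMM scaling has set the libraries to a common level over most genes. Markers of other cells that could come along were low: 7 sperm markers summed to at most 2.04 CPM and 14 cumulus and granulosa cell markers to 6.78 to 12.9 CPM in every library, with Smcp (sperm) and Ptx3 (cumulus) at 2 counts or fewer in all 12. Of 7 oviduct markers, Epcam, which embryos also express, made up most of the sum of 29.1 to 114 CPM, and Foxj1 and Pax8 stayed under 1 CPM. The labelled stages were checked with markers. Of 12 genes of the 2-cell stage 11 were tested, and 10 of these fell from 2-cell to 4-cell control embryos while Sp110, the most abundant of them, rose (log2 fold change 0.35). All 12 oocyte mRNAs fell, and of 13 genes of the 8-cell stage and first lineages 7 rose and 2 fell. The labels number the libraries of a group without saying what separates them, so the p-values below measure the spread between these pools of embryos.

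The 3 ASOs that define the MERVL-KD group are shown first, because a member that held a site for one of them could itself be bound. Each is a designed oligonucleotide of 20 bases, written 5′ to 3′ with no part marked.
MERVL-ASO1: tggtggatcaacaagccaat
MERVL-ASO2: catttgtctgtttaccacga
MERVL-ASO3: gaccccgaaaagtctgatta
On the transcribed strand of GRCm38 gene bodies, with up to 2 mismatches, 176 of the 55291 genes (0.318%) held such a site and 0 of the 54 members did. Sites with more mismatches were not sought, and whether the ASOs bound or cut any member's RNA was not tested.

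The first comparison asked how the members' transcripts change over the stages in control embryos. Most of the set rose sharply from the 2-cell to the 4-cell stage, while 2 cap-binding proteins, Eif4e1b and Eif4e3, and 2 copies of the helicase gene Eif4a3 fell more than 10-fold. The members together summed to 7834 and 8481 CPM in the 2 control 2-cell libraries, to 16209 and 16430 CPM at the 4-cell stage and to 19353 and 19351 CPM at the 8-cell stage. From 2-cell to 4-cell embryos 40 of 52 tested members rose, where 30% of all 21175 genes tested did, and 7 fell, where 31.9% of all genes did (edgeR's quasi-likelihood test, Benjamini-Hochberg adjusted p under 0.05). A change of at least 2-fold was reached by 29 of those that rose and 5 of those that fell, where 23.3% and 26.7% of all genes rose and fell by as much. The members' median log2 fold change was 1.07, against -0.03 over all genes tested. In either direction 61.9% of all genes changed. In each of the 47 members that rose or fell the 2-cell and 4-cell libraries did not overlap. This adds no support, since the test picked these members from the same libraries.

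**Figure D1:**
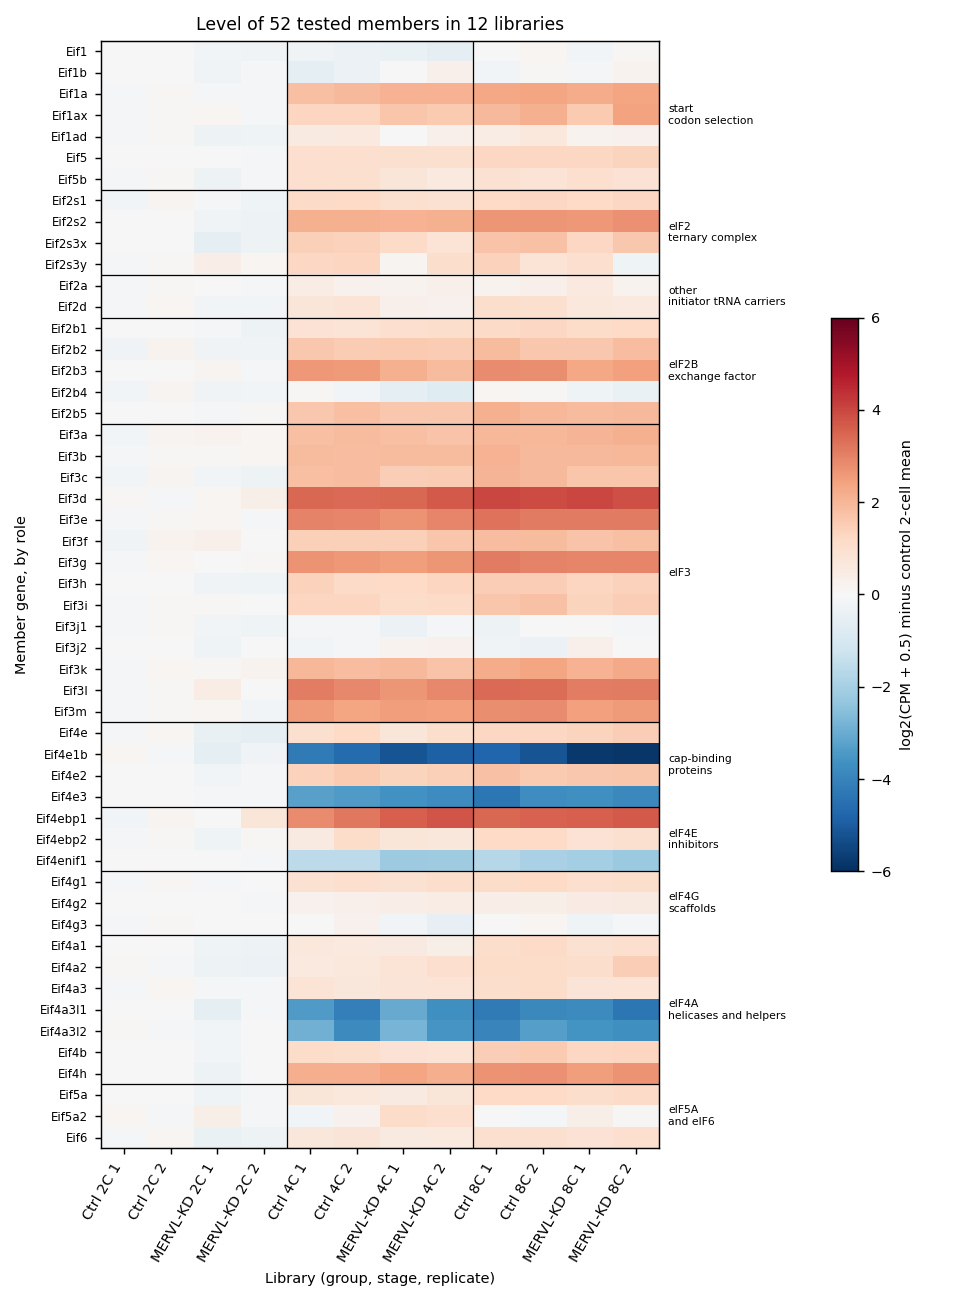
Level of the 52 tested members (rows, grouped by role) in the 12 libraries (columns), as log2(CPM + 0.5) minus the mean of the 2 control 2-cell libraries, with red above and blue below that mean. Most rows turn red at the 4-cell stage in control and MERVL-KD libraries alike, while Eif4e1b, Eif4e3, Eif4a3l1, Eif4a3l2 and Eif4enif1 turn blue.

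Among the genes grouped under start codon selection, 5 of 7 rose and 2 fell. Eif1ad, named for its likeness to eIF1A, is counted among those that rose, and its role in this step was not checked. Eif1a, which encodes eIF1A, the factor at the decoding site of the scanning ribosome, went from 27.6 and 30.6 to 104 and 114 CPM (log2 fold change 1.93, standard error 0.10, adjusted p = 8.17e-10). Eif1ax, its X-linked form, went from 24.3 and 26.9 to 63.7 and 63.2 CPM and on to 98.7 and 112 CPM, the largest rise of the set between the 4-cell and 8-cell stages (log2 fold change 0.74, standard error 0.11, adjusted p = 0.00153). Eif1, which keeps the ribosome scanning until it meets a start codon, and its relative Eif1b went the other way, with log2 fold changes of -0.25 and -0.45. Eif1b stood at 15.9 and 15.2 CPM in 2-cell and 10.4 and 12 CPM in 4-cell embryos, and its adjusted p of 0.0442 was lost when any of the 6 control libraries was left out (0.0603 to 0.197). The call of Eif1 was lost without the second 2-cell, the second 4-cell or either 8-cell library, and with library size alone, a filter of at least 1 count, or features above 1% of counts left out. Per kilobase of exon in 2-cell embryos, Eif1 (128 ± 2.07 CPM per kilobase, SD, n = 2) lay far above Eif1b (13.8 ± 0.413), Eif1a (6.97 ± 0.504) and Eif1ax (4.85 ± 0.349). By the 8-cell stage the order was Eif1 (135 ± 6.32), Eif1a (35.6 ± 0.849), Eif1ax (20 ± 1.79) and Eif1b (13.4 ± 1.48). In CPM, Eif1b was already below Eif1a and Eif1ax at the 2-cell stage.

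All 4 genes of eIF2 rose. Eif2s2, the beta subunit, moved most, from 301 and 318 to 1380.4 and 1378 CPM (log2 fold change 2.18, standard error 0.07, adjusted p = 1.85e-11), and the alpha subunit Eif2s1, which the stress kinases phosphorylate, went from 102 and 128 to 251 and 259 CPM (log2 fold change 1.17). The gamma subunit has an X-linked and a Y-linked gene. In 4-cell control embryos Eif2s3x stood at 66.1 ± 1.22 and Eif2s3y at 4.18 ± 0.178 CPM per kilobase (SD, n = 2). The value of Eif2s3x is uncertain, because 93.1% of its exonic stretches of 31 bases occur elsewhere in GRCm38 and only uniquely aligned reads were counted.

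Of the 5 subunits of eIF2B, the exchange factor that recharges eIF2, 4 rose. Eif2b3, the gamma subunit (chr4:117019402-117087306, plus strand), went from 13.5 and 14.3 to 88.2 and 84 CPM (log2 fold change 2.65, standard error 0.11, adjusted p = 1.02e-10). Eif2b4, the delta subunit (chr5:31187558-31193430, minus strand), stood at 58.8 and 73.3 against 70 and 57.9 CPM, with overlapping groups and a log2 fold change of -0.02 (adjusted p = 0.907).

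In eIF3, the largest of the factors, 12 of 14 genes rose and the other 2 did not pass the test. Eif3d, a subunit able to bind the cap of some mRNAs (chr15:77958998-77970813, minus strand of GRCm38), had the largest rise of all members, from 11.7 and 10.9 to 128 and 125 CPM (log2 fold change 3.51, standard error 0.11, adjusted p = 8.82e-12). Eif3l, Eif3e and Eif3g followed, with log2 fold changes of 3.03, 2.98 and 2.68. The core subunits Eif3a, Eif3b and Eif3c rose less, by 1.86, 1.91 and 1.83 on the log2 scale, from higher starting levels. Eif3j1 and Eif3j2, near-identical genes of the loosely bound subunit, had log2 fold changes of -0.10 and -0.10 (adjusted p = 0.437 and 0.495). Of their 31-base stretches 80.6% and 85.9% occur elsewhere, so their reads cannot be assigned with confidence, and per kilobase they stood at 30.1 ± 0.2 and 15.9 ± 0.751 CPM in 4-cell control embryos (SD, n = 2).

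Transcripts of the cap-binding proteins changed order per kilobase of exon. Eif4e1b, the relative of eIF4E known from oocytes (chr13:54783998-54788459, plus strand), fell from 292 and 255 to 13.8 and 10.6 CPM, the largest fall of all members (log2 fold change -4.45, standard error 0.17, adjusted p = 5.08e-11). Eif4e3, a relative with weaker cap binding, fell from 93.7 and 91.9 to 9.36 and 8.48 CPM (log2 fold change -3.35, standard error 0.18, adjusted p = 1.41e-09). Over the same interval Eif4e, the cap-binding subunit of eIF4F (chr3:138526179-138559696, plus strand), rose from 286 and 333 to 603 and 702 CPM (log2 fold change 1.10, standard error 0.09, adjusted p = 1.01e-07), and Eif4e2 (4EHP), which binds the cap and represses translation, rose by 1.52 on the log2 scale. Per kilobase, the order in control 2-cell embryos was Eif4e1b (121 ± 11.6 CPM per kilobase, SD, n = 2), Eif4e (51.5 ± 5.5), Eif4e3 (36.9 ± 0.531) and Eif4e2 (5.59 ± 0.0559). At the 4-cell stage it was Eif4e (109 ± 11.7), Eif4e2 (15.7 ± 1.17), Eif4e1b (5.42 ± 1.02) and Eif4e3 (3.55 ± 0.249), with no overlap between neighbours in either order. In CPM the order at the 4-cell stage was the same. At the 2-cell stage Eif4e1b and Eif4e overlapped in CPM, so their order there rests on exon length.

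**Figure D2:**
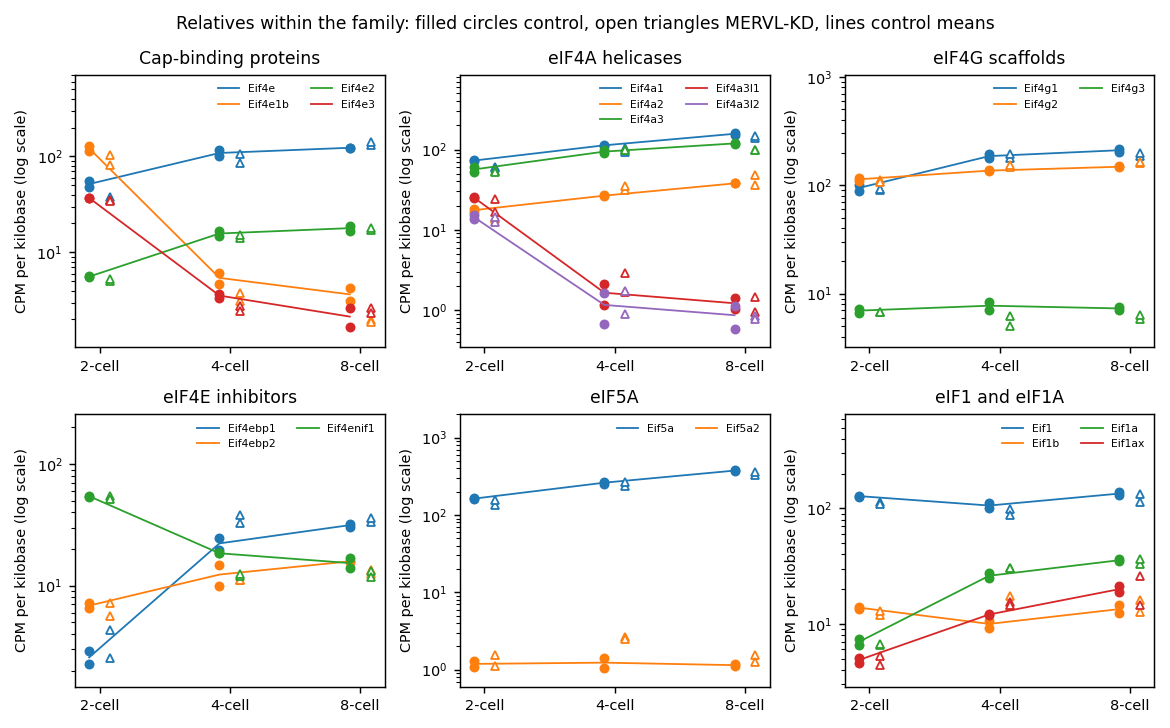
CPM per kilobase of exon (log axis) at the 3 stages for 6 groups of related members, with 1 point per library (filled circles control, open triangles MERVL-KD) and lines through the control means. On this scale, which depends on exon length, Eif4e1b falls below Eif4e and Eif4e2 between the 2-cell and 4-cell stages. Eif4a3l1 and Eif4a3l2 fall away from Eif4a3, and Eif4ebp1 rises past Eif4enif1.

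Per kilobase of exon, transcripts of the proteins that hold eIF4E back also changed order. Eif4enif1 (4E-T), which carries eIF4E into granules of stored mRNA (chr11:3202392-3244588, plus strand), fell from 342 and 351 to 117 and 118 CPM (log2 fold change -1.53, standard error 0.10, adjusted p = 6e-09). Eif4ebp1 (4E-BP1), which releases eIF4E when mTORC1 phosphorylates it, rose from 4.94 and 6.36 to 43.3 and 54.4 CPM (log2 fold change 3.13, standard error 0.16, adjusted p = 6.27e-10). Per kilobase, Eif4enif1 stood at 54.4 ± 0.975, Eif4ebp2 at 6.86 ± 0.434 and Eif4ebp1 at 2.57 ± 0.456 in 2-cell control embryos, and Eif4ebp1 was the highest of the 3 at the 8-cell stage, at 31.4 ± 1.29 against 15.9 ± 0.0829 for Eif4ebp2 and 15.3 ± 2.04 for Eif4enif1 (SD, n = 2). The last 2 did not differ beyond their spread. This order rests on exon length, and in CPM Eif4ebp1 was the lowest at that stage. It stood at 67 and 71.1 CPM against 91.3 and 92 for Eif4ebp2 and 107 and 88.5 for Eif4enif1.

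The scaffolds moved less. Eif4g1, which joins the cap-binding protein to the helicase and to eIF3, rose by 1.00 on the log2 scale and Eif4g2 (DAP5), which lacks the site for eIF4E, by 0.29. Eif4g3 stood at 73.8 and 80.6 against 78.4 and 93.1 CPM with overlapping groups (log2 fold change 0.17, adjusted p = 0.169). Per kilobase at the 2-cell stage Eif4g2 (113 ± 5.16) and Eif4g1 (94.3 ± 7.74) lay above Eif4g3 (6.98 ± 0.435), and by the 4-cell stage Eif4g1 was the highest (186 ± 9.36 against 136 ± 2.82 for Eif4g2, SD, n = 2). In CPM Eif4g1 and Eif4g2 overlapped at the 4-cell stage, at 1306.5 and 1403 against 1366 and 1407.

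Of the helicases, Eif4a1 and Eif4a2, which unwind mRNA leaders in eIF4F, rose by 0.66 and 0.62 on the log2 scale, and Eif4a3, the helicase of the exon junction complex, by 0.76. Their helpers Eif4b and Eif4h rose by 1.10 and 2.21. Eif4a3l1 and Eif4a3l2, 2 copies of Eif4a3 that lie on chromosome 6, fell instead. Eif4a3l1 went from 39.7 and 39.4 to 3.35 and 1.81 CPM (log2 fold change -3.89, standard error 0.27, adjusted p = 1.5e-08) and Eif4a3l2 from 20.6 and 18.5 to 2.24 and 0.903 CPM (log2 fold change -3.58, standard error 0.38, adjusted p = 1.64e-06). Of their 31-base stretches 66.7% and 75.8% occur elsewhere in the genome, and reads that align to more than 1 place were not counted.

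Eif4a3l1 was also the single member whose promoter held MERVL-like sequence. RefSeq promoter windows of GRCm38.p6 (250 bases before to 50 after an annotated start) were found for 41 of the 54 members and 27025 genes. They were aligned with BLAST to 399 bases from the start of a MERVL consensus, an end at which such an element carries a long terminal repeat. A match on the same strand at an E-value of 1e-10 or less was found for 57 genes (0.211%). In the window of Eif4a3l1, 298 of 300 bases aligned over 333 columns, gaps included, at 78.4% identity (E = 5.22e-84). The window is shown from its start to 30 bases after the annotated start of Eif4a3l1, at chr6:136327289-136327568 on the plus strand of GRCm38.p6, with the aligned bases in capitals.
Eif4a3l1: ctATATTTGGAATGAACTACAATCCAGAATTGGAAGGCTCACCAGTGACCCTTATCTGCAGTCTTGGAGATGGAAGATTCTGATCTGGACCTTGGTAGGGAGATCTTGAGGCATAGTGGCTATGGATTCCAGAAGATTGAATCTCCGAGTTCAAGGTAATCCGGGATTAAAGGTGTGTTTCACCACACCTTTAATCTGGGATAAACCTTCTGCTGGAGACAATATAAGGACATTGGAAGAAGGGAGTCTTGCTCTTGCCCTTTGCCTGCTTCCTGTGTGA
In MERVL-KD 2-cell embryos this gene stood at 26.1 and 37.9 CPM against 39.7 and 39.4 CPM in control (log2 fold change -0.22, standard error 0.15, adjusted p = 0.384). The second MERVL-KD library lay close to the control libraries and the first below them, and the call was made only without that second library. This search was chosen after the values of the members had been seen.

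The mRNAs of many ribosomal proteins and of some initiation factors start with an oligopyrimidine tract that ties their translation to mTORC1. Runs of 8 or more letters made of C and T alone, on the transcribed strand and starting within 20 bases of the annotated start, were found for 11 of 41 members (26.8%) and for 19.6% of all genes with a window, so the members' share was near that of all genes. Among the runs that cross the annotated start, which Eif2b5 and Eif2c5 also hold, those of Eif3f, Eif3l and Eif2s3x are shown as examples, from 20 bases before it to 30 after it, with the run in capitals.
Eif3f: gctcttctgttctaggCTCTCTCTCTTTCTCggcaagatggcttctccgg
Eif3l: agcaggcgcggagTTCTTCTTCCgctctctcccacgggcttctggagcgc
Eif2s3x: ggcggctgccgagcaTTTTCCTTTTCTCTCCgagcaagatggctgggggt
The first is at chr7:108934395-108934444 (plus strand), the second at chr15:79075203-79075252 (plus strand) and the third at chrX:94212622-94212671 (minus strand) of GRCm38.p6.

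Eif5a, the hypusine-carrying factor that helps ribosomes past stretches where they stall, rose from 382 and 392 CPM in 2-cell to 638 and 606 CPM in 4-cell and then 883 and 899 CPM in 8-cell embryos. Its relative Eif5a2 (chr3:28781276-28798846, plus strand) was near 1.2 CPM per kilobase at every control stage (1.19 ± 0.132, 1.23 ± 0.259 and 1.14 ± 0.035, SD, n = 2), where Eif5a stood at 163 ± 3.16, 262 ± 9.44 and 375 ± 4.69. Eif6, which keeps the large ribosomal subunit from joining too early, rose by 0.74 on the log2 scale.

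From the 4-cell to the 8-cell stage the changes were small. In this interval 20 members rose, where 4.88% of all genes did, and 1 fell, where 3.63% of all genes did, a share of 8.51% of all genes in either direction. The largest of these changes stayed under 2-fold, which 0.604% of all genes exceeded upwards and 1.38% downwards. The largest rises after Eif1ax were those of Eif4h (log2 fold change 0.56), Eif3d (0.55), Eif5a (0.53), Eif4a2 (0.52) and Eif4ebp1 (0.51). Eif4e3 was the member that fell, from 9.36 and 8.48 to 4.17 and 6.6 CPM (log2 fold change -0.71, standard error 0.19, adjusted p = 0.0345). These counts depend on single libraries and on scaling. Leaving out the second control 8-cell library left 6 that rose, the first 9, and the second and first control 4-cell libraries 13 and 15, and scaling by library size alone gave 7 that rose and 4 that fell, with the median of all genes shifted to -0.21 on the log2 scale.

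The second comparison asked how MERVL-KD embryos differed from control embryos of the same stage. At the 2-cell stage 2 members were lower and 0 higher, a share of 3.85% against 14.1% of all 20604 genes tested. Of all genes 7.39% were lower and 6.7% higher. Neither member reached a 2-fold change, where 2.24% of all genes were lower and 4.37% higher by that measure. The members' median log2 fold change was -0.01, beside 0.01 over all genes. At an unadjusted p under 0.05, 1 member was higher and 6 were lower, and DESeq2 called 0 higher and the same 2 lower. Of all 20604 genes tested, 5556 had an unadjusted p under 0.05 in either direction, and DESeq2 called 1192 higher and 1564 lower. In bulk libraries a lower level may come from fewer cells that hold a transcript or from less of it per cell, and these cannot be told apart.

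Eif4e was the member with the smallest adjusted p at this stage. It stood at 286 and 333 CPM in control and 224 and 209 CPM in MERVL-KD 2-cell embryos (log2 fold change -0.43, standard error 0.09, adjusted p = 0.00436), and both MERVL-KD libraries lay below both controls. At the 4-cell stage the groups overlapped, at 603 and 702 against 514 and 639.9 CPM (adjusted p = 0.399), and at the 8-cell stage both MERVL-KD libraries, at 787 and 857 CPM, lay above the controls at 738 and 740.3 CPM (adjusted p = 0.266). The oocyte form Eif4e1b stood at 292 and 255 against 183 and 235 CPM (log2 fold change -0.31, standard error 0.11, adjusted p = 0.0924). Together the 4 cap-binding genes summed to 714 and 721 CPM in control and 534 and 571 CPM in MERVL-KD 2-cell embryos. Of the 12 oocyte mRNAs, 5 were also lower at this stage, among them Bmp15 (log2 fold change -0.81), Oosp1 (-0.32) and Padi6 (-0.38), and the part of this in the values of Eif4e was not tested.

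Eif2s3x, the X-linked gamma subunit of eIF2, stood at 93.7 and 97.6 CPM in control and 65 and 76.9 CPM in MERVL-KD 2-cell embryos (log2 fold change -0.35, standard error 0.10, adjusted p = 0.0346). The Y-linked Eif2s3y stood at 6.63 and 7.29 against 9.46 and 7.58 CPM (adjusted p = 0.273). Without the first MERVL-KD or the second control library the adjusted p of Eif2s3x was 0.247 or 0.078, and over all 15 alternatives it ranged from 0.00316 to 0.716. Scaling decided the direction of the counts at this stage: with library size alone 20 members were higher and 0 lower, the median of all genes moved to 0.30, and 86.3% of the genes called were higher against 47.6% after TMM. The members' median minus that of all genes was -0.02 under either scaling.

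**Figure D3:**
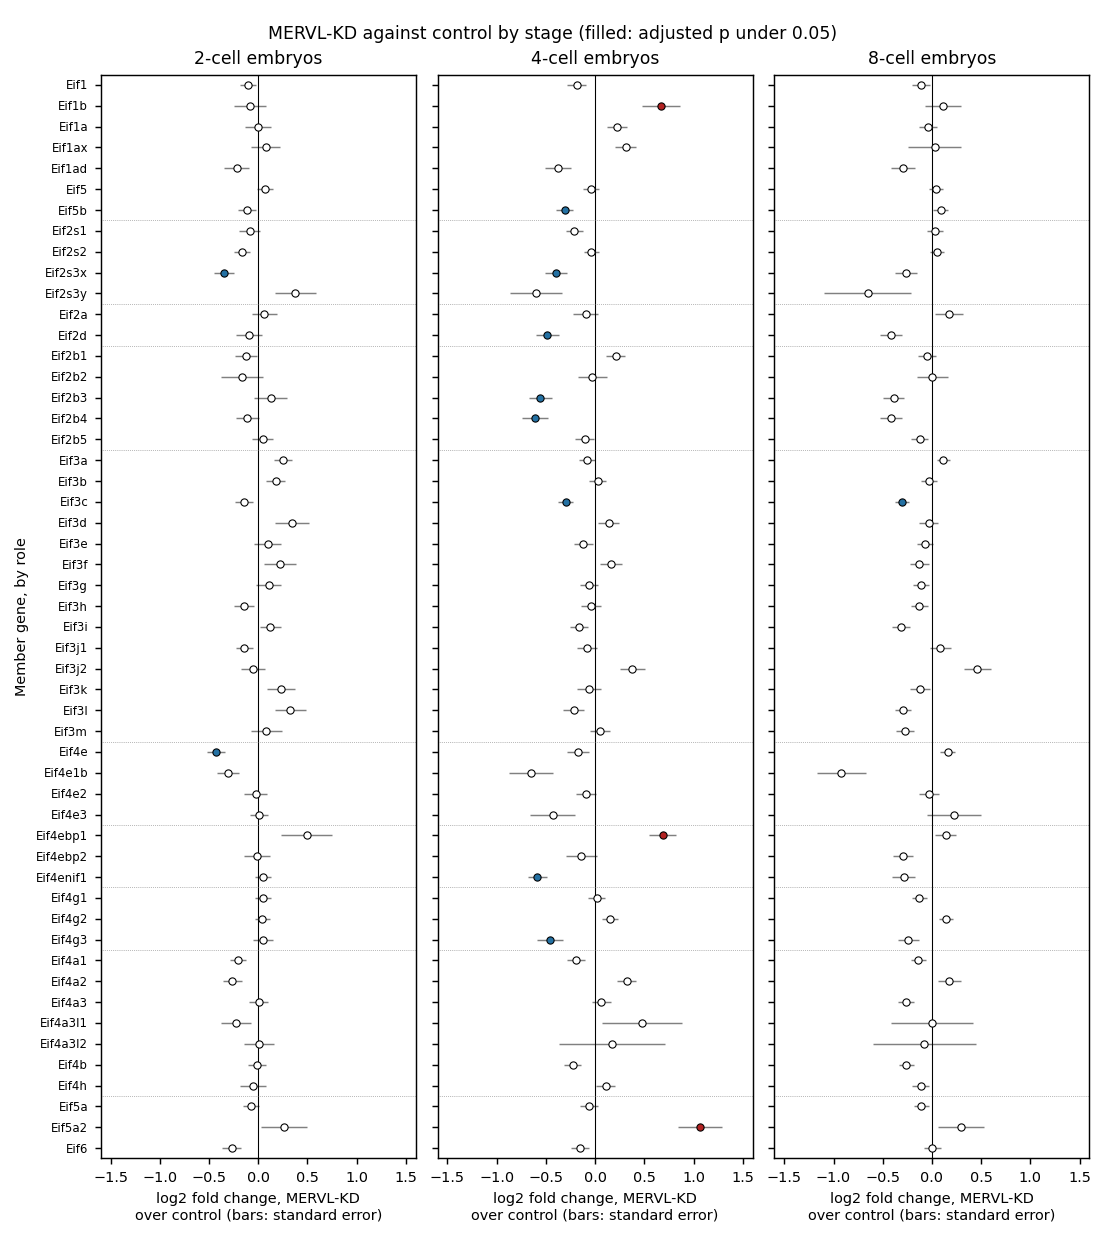
Log2 fold change of MERVL-KD over control (x axis, bars give the standard error) for the 52 tested members (rows, grouped by role) at the 2-cell, 4-cell and 8-cell stages, with filled points for an adjusted p under 0.05 (blue lower, red higher). There are 2 filled points in 2-cell, 11 in 4-cell and 1 in 8-cell embryos.

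At the 4-cell stage 8 members were lower and 3 higher, where 5.84% and 4.92% of all 19738 genes tested were. The share in either direction was 21.2% of members against 10.8% of all genes, and the median log2 fold change was -0.08 against 0.03. The members that were lower came from several steps of initiation: eIF2 and its recharging (Eif2s3x, Eif2b3, Eif2b4), reinitiation (Eif2d), subunit joining (Eif5b), eIF3 (Eif3c), and the machinery around the cap (Eif4g3, Eif4enif1). The 3 that were higher, Eif4ebp1, Eif5a2 and Eif1b, are a cap inhibitor and 2 relatives of more abundant factors. Of the 11, Eif5a2 alone changed by at least 2-fold, where 2.66% of all genes were higher and 1.88% lower by that measure.

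Eif4enif1 had the smallest adjusted p. It stood at 117 and 118 CPM in control and 76.8 and 79.1 CPM in MERVL-KD embryos (log2 fold change -0.59, standard error 0.10, adjusted p = 0.00285), with the groups far apart and the replicates close together. At the 2-cell stage its levels had overlapped, at 342 and 351 against 344 and 331 CPM, so MERVL-KD embryos went through a larger fall than control embryos over the same interval. The test of that difference is given below.

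Both eIF2B subunits named above were lower. Eif2b3 stood at 88.2 and 84 CPM in control and 62.7 and 53.8 CPM in MERVL-KD (log2 fold change -0.56, standard error 0.12, adjusted p = 0.0109). Eif2b4 stood at 70 and 57.9 against 44.2 and 39.3 CPM (log2 fold change -0.61, standard error 0.13, adjusted p = 0.0139). The other 3 subunits had log2 fold changes from -0.10 to 0.21 and did not pass the test. Eif2d, a single-chain factor of ribosome recycling and reinitiation, stood at 54.6 and 58.4 against 41.1 and 39.4 CPM (log2 fold change -0.48, standard error 0.12, adjusted p = 0.0252), and Eif2s3x at 255 and 249 against 211 and 169.6 CPM (log2 fold change -0.40, standard error 0.11, adjusted p = 0.0419).

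Eif3c, a core scaffold subunit of eIF3 (chr7:126546455-126566411, minus strand), stood at 1363 and 1396 CPM in control and 1098 and 1133 CPM in MERVL-KD (log2 fold change -0.30, standard error 0.08, adjusted p = 0.0328). It was the single one of 14 eIF3 genes to pass the test, and the others ranged from -0.22 to 0.38. Eif5b, the GTPase that joins the subunits, went from 978 and 958 in control to 818 and 740.5 CPM (log2 fold change -0.31, standard error 0.09, adjusted p = 0.0421), and Eif4g3 from 78.4 and 93.1 to 68.7 and 55.5 CPM (log2 fold change -0.46, standard error 0.13, adjusted p = 0.0493). For all 8 members that were lower, both MERVL-KD libraries lay below both controls, which is no separate support because the same libraries picked them.

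Among those that were higher, Eif5a2 stood at 5.28 and 7.12 CPM in control and 13.3 and 12.6 CPM in MERVL-KD (log2 fold change 1.07, standard error 0.23, adjusted p = 0.0112), from 186 and 205 against 484 and 430 counts. Eif5a itself overlapped between the groups (638 and 606 against 555 and 635 CPM), and per kilobase it remained far above Eif5a2, at 250.4 ± 23.7 against 2.57 ± 0.103 in MERVL-KD (SD, n = 2). Eif4ebp1 stood at 43.3 and 54.4 against 72.4 and 84.3 CPM (log2 fold change 0.69, standard error 0.14, adjusted p = 0.00793), and Eif1b at 10.4 and 12 against 16 and 19.6 CPM (log2 fold change 0.67, standard error 0.19, adjusted p = 0.0459). In all 3 the groups did not overlap, which is again no separate support.

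These calls depended on single libraries to different degrees. Without the first control 4-cell library only 2 members passed the test, Eif4enif1 and Eif4g3, both lower, and without the second 3 were lower (Eif2b3, Eif2b4 and Eif4enif1) and 2 higher. Without the second MERVL-KD library 7 of the 11 calls were shared, as Eif2s3x, Eif5b, Eif4g3 and Eif1b no longer passed and Eif1ad, Eif2s3y and Eif4e came in as lower. Eif4enif1 passed in every one of the 15 alternatives, with log2 fold changes from -0.61 to -0.53 and adjusted p from 1.54e-05 to 0.0119. Scaling by library size alone left 3 lower (Eif2b3, Eif2b4 and Eif4enif1) and 4 higher.

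**Figure D4:**
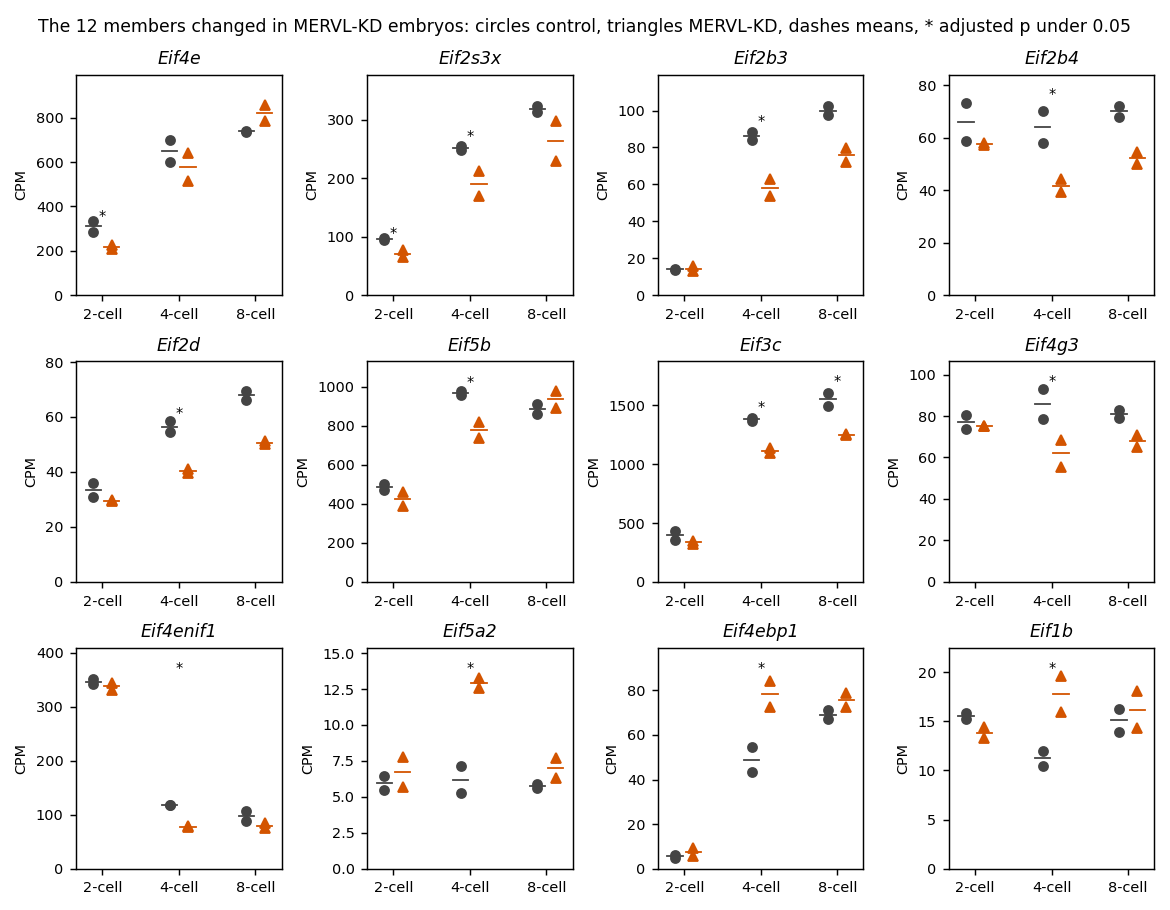
CPM (y axis, from 0) in each library for the 12 members that changed in MERVL-KD embryos at any stage, with grey circles for control, orange triangles for MERVL-KD, dashes for means and an asterisk where the adjusted p is under 0.05. Eif2b3, Eif2b4, Eif2d, Eif3c, Eif4enif1, Eif4g3 and Eif2s3x lie below the controls at the 4-cell and 8-cell stages. Eif5a2 and Eif1b lie closer to the controls in 8-cell than in 4-cell embryos.

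At the 8-cell stage 1 member was lower and 0 higher, where 3.56% and 1.5% of all 18414 genes tested were (5.06% in either direction). A change of 2-fold, seen in 1.06% of all genes downwards and 0.641% upwards, was not reached. Eif3c stood at 1608 and 1497 CPM in control and 1252 and 1250.1 CPM in MERVL-KD (log2 fold change -0.30, standard error 0.07, adjusted p = 0.0346). Several members that were lower at the 4-cell stage sat just outside the threshold here. Eif2d stood at 69.6 and 66.2 against 51.3 and 50 CPM (adjusted p = 0.052), Eif2b3 at 102 and 97.8 against 71.9 and 79.9 CPM (adjusted p = 0.0529) and Eif2b4 at 72.2 and 68 against 54.5 and 49.9 CPM (adjusted p = 0.0561), with no overlap in any of them. Eif4e1b, by then rare, stood at 9.5 and 6.97 against 4.44 and 4.21 CPM (adjusted p = 0.0585). Further from the threshold, Eif4enif1 stood at 107 and 88.5 against 84.3 and 74.7 CPM (adjusted p = 0.208). Eif4g3 and Eif2s3x also had both MERVL-KD libraries below both controls (adjusted p = 0.234 and 0.21).

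The members that had been higher at the 4-cell stage no longer passed the test. For Eif5a2 and Eif4ebp1 both MERVL-KD libraries still lay above both controls. Eif5a2 stood at 5.88 and 5.63 against 7.73 and 6.31 CPM (adjusted p = 0.56), Eif4ebp1 at 67 and 71.1 against 72.6 and 78.8 CPM (adjusted p = 0.525) and Eif1b at 13.9 and 16.3 against 14.3 and 18.1 CPM (adjusted p = 0.822). Eif3j2 stood at 35.3 and 32.2 against 50.4 and 42 CPM (adjusted p = 0.0807), while Eif3j1, which shares most of its sequence, stood at 156 and 194 against 190.0 and 179 CPM (adjusted p = 0.743).

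The count at this stage turned on the test. At an unadjusted p under 0.05, 15 members were lower and 1 higher, and DESeq2 called 7 lower (Eif2b3, Eif2b4, Eif2d, Eif3c, Eif3i, Eif3l and Eif4e1b) and 1 higher (Eif3j2). Of all 18414 genes tested, 3582 had an unadjusted p under 0.05 in either direction, and DESeq2 called 895 lower and 432 higher. Leaving out the first control library gave 0 lower, the second 1 (Eif4e1b), and the first and second MERVL-KD libraries 6 and 10. The call of Eif3c was lost without either control library (adjusted p = 0.326 and 0.0856), with all 12 libraries in one fit (0.0648) and with library size alone (0.182), and over 15 alternatives its adjusted p ranged from 0.000125 to 0.326. Scaling by library size alone gave 0 lower and 4 higher (Eif3a, Eif3j2, Eif4e and Eif4g2), with the median of all genes at 0.13.

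Whether the effect of MERVL-KD differed between consecutive stages was tested in one fit of all 12 libraries. From the 2-cell to the 4-cell stage 2 of 52 members differed, 1 towards higher values and 1 towards lower, beside 2.51% and 1.64% of all 24040 genes tested (4.16% in either direction). Eif4enif1 was the one towards lower values, its log2 fold change differing by -0.56 (standard error 0.15, adjusted p = 0.033). Eif4a2, the helicase related to eIF4A1, was the other. Its level was 97.8 and 89.3 CPM in control and 75.1 and 72.1 CPM in MERVL-KD 2-cell embryos, then 139.7 and 144 against 167 and 186 CPM in 4-cell embryos, below the controls and then above them (difference 0.66, standard error 0.16, adjusted p = 0.0239). Neither stage alone passed the test for Eif4a2 (adjusted p = 0.0979 and 0.0565). With 1 library left out, the difference of Eif4enif1 failed the test in 7 of 12 fits and that of Eif4a2 in 7 of 12, at adjusted p of up to 0.118 and 0.19, without a change of sign. From the 4-cell to the 8-cell stage 0 members differed in edgeR's test, beside 0.275% and 0.349% of all genes (0.624% in either direction). At an unadjusted p under 0.05 there were 3 towards higher and 4 towards lower values, and DESeq2 called 0. Of all 24040 genes tested, 2748 had an unadjusted p under 0.05, and DESeq2 called 470.

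The neighbouring steps of translation were read from lists of genes outside the set. Bzw2 (5MP1), which competes with eIF5 on the ribosome, stood at 19.7 and 26.1 CPM in control and 3.8 and 4.52 CPM in MERVL-KD 2-cell embryos, and at 136 and 126 against 23.2 and 18.5 CPM at the 4-cell stage. Its log2 fold changes were -2.38, -2.64 and -1.50 at the 3 stages. Gspt1 (eRF3a), the GTPase of translation termination, stood at 76.7 and 71.9 against 23.8 and 21.1 CPM and 203 and 227 against 63.7 and 55.3 CPM, with log2 fold changes of -1.64, -1.85 and -0.99. Both passed the test at every stage, and in both the groups did not overlap at any stage.

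Of 16 other initiation and recycling factors, 3 were lower in 2-cell, 2 in 4-cell and 1 in 8-cell embryos, and these are the only ones that changed. At the 2-cell stage these were Bzw2, Denr (-0.62), which acts in reinitiation, and the helicase Ddx3x (-0.38), and at the 4-cell stage Bzw2 and Dhx29 (-0.56), a helicase for structured leaders. Of 16 elongation and termination factors (15 tested at the 2-cell and 8-cell stages), 2, 2 and 1 were lower, and 1 was higher at the 4-cell stage. Beside Gspt1 these were Eef2k (-0.65), the kinase of elongation factor eEF2, in 2-cell embryos, and in 4-cell embryos Eef1e1 (-0.60) and the higher Eef1a1 (0.40), which carries aminoacyl-tRNA. For comparison, 7.39%, 5.84% and 3.56% of all genes were lower at the 3 stages, and 4.92% were higher at the 4-cell stage.

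The list of eIF2 kinases and phosphatase subunits held 8 genes. At the 2-cell stage Eif2ak2 (PKR), the kinase that double-stranded RNA activates, was higher in MERVL-KD (log2 fold change 2.15) from a low level, at 0.383 and 0.468 against 1.57 and 2.04 CPM. Ppp1r15a (-0.46), a phosphatase subunit that reverses eIF2 phosphorylation, and the kinase Eif2ak4 (-0.36) were lower. At the 4-cell stage 0 of 8 passed edgeR's test, with 4 at an unadjusted p under 0.05, where 4948 of all 19738 genes were. At the 8-cell stage 1 of 7 tested, Ppp1r15b (-0.36), was lower. Of all genes 6.7%, 4.92% and 1.5% were higher and 7.39%, 5.84% and 3.56% lower at the 3 stages. Of 25 targets of the integrated stress response, which phosphorylated eIF2 sets off, 2 of 25, 3 of 24 and 2 of 23 tested passed the test at the 3 stages, all of them higher. The ones that rose were Asns (1.48) and Sesn2 (0.31) at the 2-cell stage, Sesn2 (0.80), Ddit4 (0.83) and Nupr1 (0.99) at the 4-cell stage, and Nupr1 (0.95) and Sesn2 (0.51) at the 8-cell stage. The list's median was 0.13, 0.23 and -0.01, beside 0.01, 0.03 and 0.01 over all genes.

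Of 24 genes of the mTORC1 pathway, which controls the 4E-BPs (23 tested at the 4-cell and 8-cell stages), 4 were lower at the 2-cell stage, among them Tsc2 (-0.75), Rheb (-0.60) and Pdcd4 (-0.40). At the 4-cell stage Mknk2 (0.72), a kinase of eIF4E, was higher, and Rps6kb2 (-0.75), Tsc1 (-0.42) and Rptor (-0.58) were lower. At the 8-cell stage 0 passed edgeR's test, with 2 at an unadjusted p under 0.05, where 3582 of all 18414 genes were. Of 24 partners that bind the cap or the poly(A) tail, Btg4, an adaptor for the removal of maternal mRNA, was lower at all 3 stages (-0.69, -0.77 and -0.66). Ncbp2 (-0.39) was lower and Paip2b (0.40) higher at the 2-cell stage, Ncbp1 (-0.34) lower at the 4-cell stage and Pabpc4 (-0.34) lower at the 8-cell stage. Both lists stand beside 7.39%, 5.84% and 3.56% of all genes lower and 6.7%, 4.92% and 1.5% higher at the 3 stages.

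Marker lists moved with MERVL-KD beside these values, and their part in the members' values was not tested. Of 11 tested 2-cell markers 8 were lower at the 2-cell stage, among them Zscan4c (-1.47), Sp110 (-0.68) and Tdpoz2 (-1.21), then 3 at the 4-cell stage (Sp110 again, Tdpoz2, -0.78, and Zfp352, -1.04) and 1 at the 8-cell stage (Sp110, -0.69). Their summed level was 1741 to 1780 CPM in control and 941 to 1096 CPM in MERVL-KD at the 2-cell stage, 1404 to 1509 against 719.5 to 769 CPM at the 4-cell stage and 1738 to 1829 against 1048 to 1192 CPM at the 8-cell stage. These sums depend most on Sp110, the most abundant of the markers. The median log2 fold change of the 11 was -0.74, 0.26 and -0.03 at the 3 stages. At the 4-cell stage 8 of them leaned higher and 3 lower, and 0 were higher by the test. Of 13 genes of the 8-cell stage and first lineages, Cdh1 (0.30) was higher at the 2-cell stage, Krt8 (2.45), Krt18 (1.41) and Klf4 (0.43) were higher at the 4-cell stage, and Pou5f1 (-0.68), Nanog (-0.65) and Esrrb (-0.39) were lower at the 8-cell stage. Of the markers of surrounding cells, Star (1.14) and Ovgp1 (2.20) were higher at the 2-cell stage, both at 5.04 CPM or less, and Epcam at the 4-cell (1.14) and 8-cell (0.75) stages, while at most 1 of the 7 sperm markers was expressed enough to be tested.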

How the data were processed

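Total RNA of 12 libraries was prepared with a stranded SMART-Seq kit and read as pairs of 150 bases. The authors aligned reads with STAR 2.5.3a to GRCm38, kept unique alignments and deposited raw counts from featureCounts for 55291 genes (GENCODE vM25) and 1035 repeat families. The strand and pair settings of that counting are not given in the sources used here.

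Counts were tested here with edgeR 4.0.16 (R 4.3.3; quasi-likelihood, robust, TMM, filterByExpr) over all genes and repeat families, with Benjamini-Hochberg adjustment over every feature tested. The scripts were tested on simulated data. MERVL-KD was compared with control stage by stage (4 libraries a fit), control stages in one fit of 6 libraries, and differences between stages in one fit of 12. "Rose", "fell", "higher" and "lower" mean an adjusted p under 0.05. The level of a gene is CPM on TMM factors, per kilobase of exon where genes are compared. The length used is that of all annotated exons of a gene, so orders between genes depend on it. A bulk depth of 28167085 counts or more leaves 2 libraries per group as the limit on precision.

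Members that changed in MERVL-KD, the 6 largest changes in each direction between control stages, named relatives, and up to 3 genes per list, direction and stage with the smallest adjusted p were named by rule. Other members were added to complete a role after their values were seen. Members and lists were chosen with earlier results of these data known. A list of eIF1A-like multicopy genes matched 0 RefSeq genes and is empty. The shares of members' 31-base stretches found elsewhere come from GRCm38, and are stricter than pairs of 150 bases. ASO sites were searched in GRCm38 gene bodies, and promoter windows (RefSeq, GRCm38.p6) with BLAST 2.17.0. Alternatives were DESeq2 1.42.0, other scalings and filters, counts halved, a replicate block and leaving out each library. ATAC-seq samples were not analysed here.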

Additional observations from a re-analysis of the deposited data

Results flagged for a closer look

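The effect of MERVL-KD on 2 members differed between the 4-cell and the 2-cell stage by a test of that difference (edgeR's quasi-likelihood interaction test over 12 libraries). For Eif4enif1, the carrier of eIF4E into granules, the difference in log2 fold change was -0.56 (standard error 0.15, adjusted p = 0.033; 0.00123 to 0.118 over 22 alternatives). Both MERVL-KD libraries were lower than both controls at the 4-cell stage, and the groups overlapped at the 2-cell stage. For Eif4a2, a helicase of eIF4F, the difference was 0.66 (standard error 0.16, adjusted p = 0.0239; 0.00508 to 0.193 over 22 alternatives), with MERVL-KD below control in 2 of 2 libraries at the 2-cell stage and above control in 2 of 2 at the 4-cell stage.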

How the results depend on the processing

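The log2 fold changes of the changed members that were recomputed (those called in MERVL-KD against control, the interactions, and the largest changes between control stages) kept their sign under every alternative. With library size alone, however, the balance of counts in MERVL-KD turned from lower to higher at all 3 stages. Of 160 recomputed counts of members, 120 stayed within 1.5 times the value given above and 40 moved; the cause was not tested. With the further criterion of 2-fold, 0 were lower at the 2-cell, 4-cell and 8-cell stages in MERVL-KD, 1 was higher at the 4-cell stage, and 0 rose or fell from the 4-cell to the 8-cell control stage or differed between the 2-cell and 4-cell stages. With library size alone, which moved the median of all genes by 0.30, 0.09 and 0.13 in place of 0.01, 0.03 and 0.01 for MERVL-KD at the 3 stages, 20, 4 and 4 members were higher and 0, 3 and 0 lower. Higher genes then made up 86.3%, 57.2% and 60.9% of all genes called, against 47.6%, 45.7% and 29.6%. From the 4-cell to the 8-cell control stage 7 rose and 4 fell (15.2% of genes called higher, against 57.3%), and 0 and 9 differed towards higher and lower values between the 2-cell and 4-cell stages (15% against 60.5%).

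DESeq2 called 7 lower and 1 higher at the 8-cell stage, 2 that fell from the 4-cell to the 8-cell stage, and 3 and 2 that differed between the 2-cell and 4-cell stages. With any gene of at least 1 count, 1 was higher in 2-cell embryos, 1 higher and 5 lower in 8-cell embryos, and 2 fell from the 4-cell to the 8-cell stage. With at least 10 counts in every library, 1 was higher at the 2-cell stage, 3 were lower at the 8-cell stage, 2 fell from the 4-cell to the 8-cell stage and 2 differed towards lower values. Counts halved gave 2 lower at the 8-cell stage (Eif2b3 and Eif3c), all 12 libraries in one fit gave 2 others (Eif2d and Eif4e1b) without Eif3c, and the fit with no robust option gave 5 lower at the 4-cell stage. Genes alone, features above 1% of counts left out, and halved counts each gave 2 that fell from the 4-cell to the 8-cell stage.

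Deviations of same-numbered control and MERVL-KD libraries correlated at -0.035, 0.0061 and 0.022 across genes at the 3 stages. With 2 libraries per group this cannot settle whether equal numbers shared a batch. With the replicate number as a block, 5 members were lower in 4-cell embryos, 6 lower and 1 higher in 8-cell embryos, and 2 fell from the 4-cell to the 8-cell stage. Leaving out 1 library, the MERVL-KD comparison of 2-cell embryos gave 0 to 2 members higher and 1 to 4 lower. In 4-cell embryos it gave 0 to 4 and 2 to 8, and in 8-cell embryos 0 to 3 and 0 to 10. It gave 39 to 40 that rose and 5 to 6 that fell from the 2-cell to the 4-cell control stage, 6 to 23 that rose and 0 to 2 that fell after it, 0 to 1 and 0 to 2 that differed towards higher and lower values between the 2-cell and 4-cell stages, and 0 to 0 between the 4-cell and 8-cell stages.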
